A study of Canis lupus familiaris with 22 samples.

Results

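The 100 genes described here had more RNA in peripheral than in macular RPE/choroid of every dog examined, without a retinal difference past a set size in the same direction in all of them. RPE/choroid is the retinal pigment epithelium (RPE) together with the choroid behind it. The genes were chosen from 30951 gene identifiers by measured values. CPM was the count of a gene scaled to 1000000 counts in its library. For each dog the regional difference was the log2 ratio of macular to peripheral CPM, each with 0.5 CPM added. A gene qualified when this difference was -0.2 or lower in RPE/choroid in all 4 dogs, when the 4 retinal differences were neither all at least 0.2 nor all -0.2 or lower, and when its mean over the 8 RPE/choroid libraries was at least 2 CPM. Of 14069 genes with that mean level, 999 were lower in the macula in this sense, 778 of these met the retinal condition, and the 100 with the lowest maximum difference were kept. The last gene kept had a maximum difference of -0.77, and so had the first gene left out. Because the RPE/choroid difference chose the genes, its values are given as a description and are not tested.

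The RPE is a pigmented epithelium that recycles visual pigment, takes up shed photoreceptor tips and carries nutrients between the choroid and the retina. The choroid is a vascular connective tissue with pigment cells, fibroblasts, nerves and immune cells. The macula is the region of sharpest vision. In dogs, part of the choroid carries a reflecting cell layer, the tapetum lucidum. The labels do not say whether the sampled sites lay over it.

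The regional libraries came from 4 untreated mixed-breed dogs, each of which gave macular and peripheral retina and macular and peripheral RPE/choroid from 1 eye. Dogs 18-2 (male, pitbull mixed breed, estimated at 2 to 3 years) and 18-6 (male, mastiff mixed breed, 3 to 5 years) were sampled in the left eye. Dogs 18-7 (female, pitbull mixed breed, 3 to 5 years) and 18-9 (female, boxer mixed breed, 2 to 3 years) were sampled in the right eye. A second set of 3 dogs gave macular RPE/choroid only, with the retina left on the right eye during sampling and peeled off the left eye beforehand. These were dog 1 (female, labrador/pitbull mixed breed, 3 to 5 years), dog 2 (male, pitbull mixed breed, 2 to 3 years) and dog 3 (male, pitbull mixed breed, 3 to 4 years). The second set took no part in choosing the genes.

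Total counts of the 22 libraries ran from 2690847 (peripheral RPE/choroid of dog 18-6) to 7845325 (retina off, dog 3), so that 3 counts corresponded to 1.11 CPM in the shallowest library and to 0.382 CPM in the deepest. No gene held more than 0.153% of a library. How duplicate reads were treated is not given in the sources used here, and its effect on these CPM values and folds was not tested. None of the 30951 identifiers could be matched to a gene symbol, so the genes are given by Ensembl identifier, a few per comparison. The markers that would check the labelled tissues and cell types could therefore not be read.

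All 100 genes had counts in every peripheral RPE/choroid library. Their mean peripheral level ran from 3.52 to 464 CPM with a median of 16.6 CPM, and 9 genes averaged at least 100 CPM, 56 from 10 to under 100 CPM and 35 under 10 CPM. In the macula the same means ran from 0.112 to 193 CPM with a median of 3.77 CPM. Summed over the genes, the peripheral libraries held 3598, 2594, 3766 and 3469 CPM in dogs 18-2, 18-6, 18-7 and 18-9, against 1317, 700, 1340 and 941 CPM in the macula of the same dogs. The sums of the regions did not overlap, and the choice of genes for a fall in each dog sets their direction. In bulk tissue, more cells of a type and more RNA per cell cannot be told apart.

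**Figure D1:**
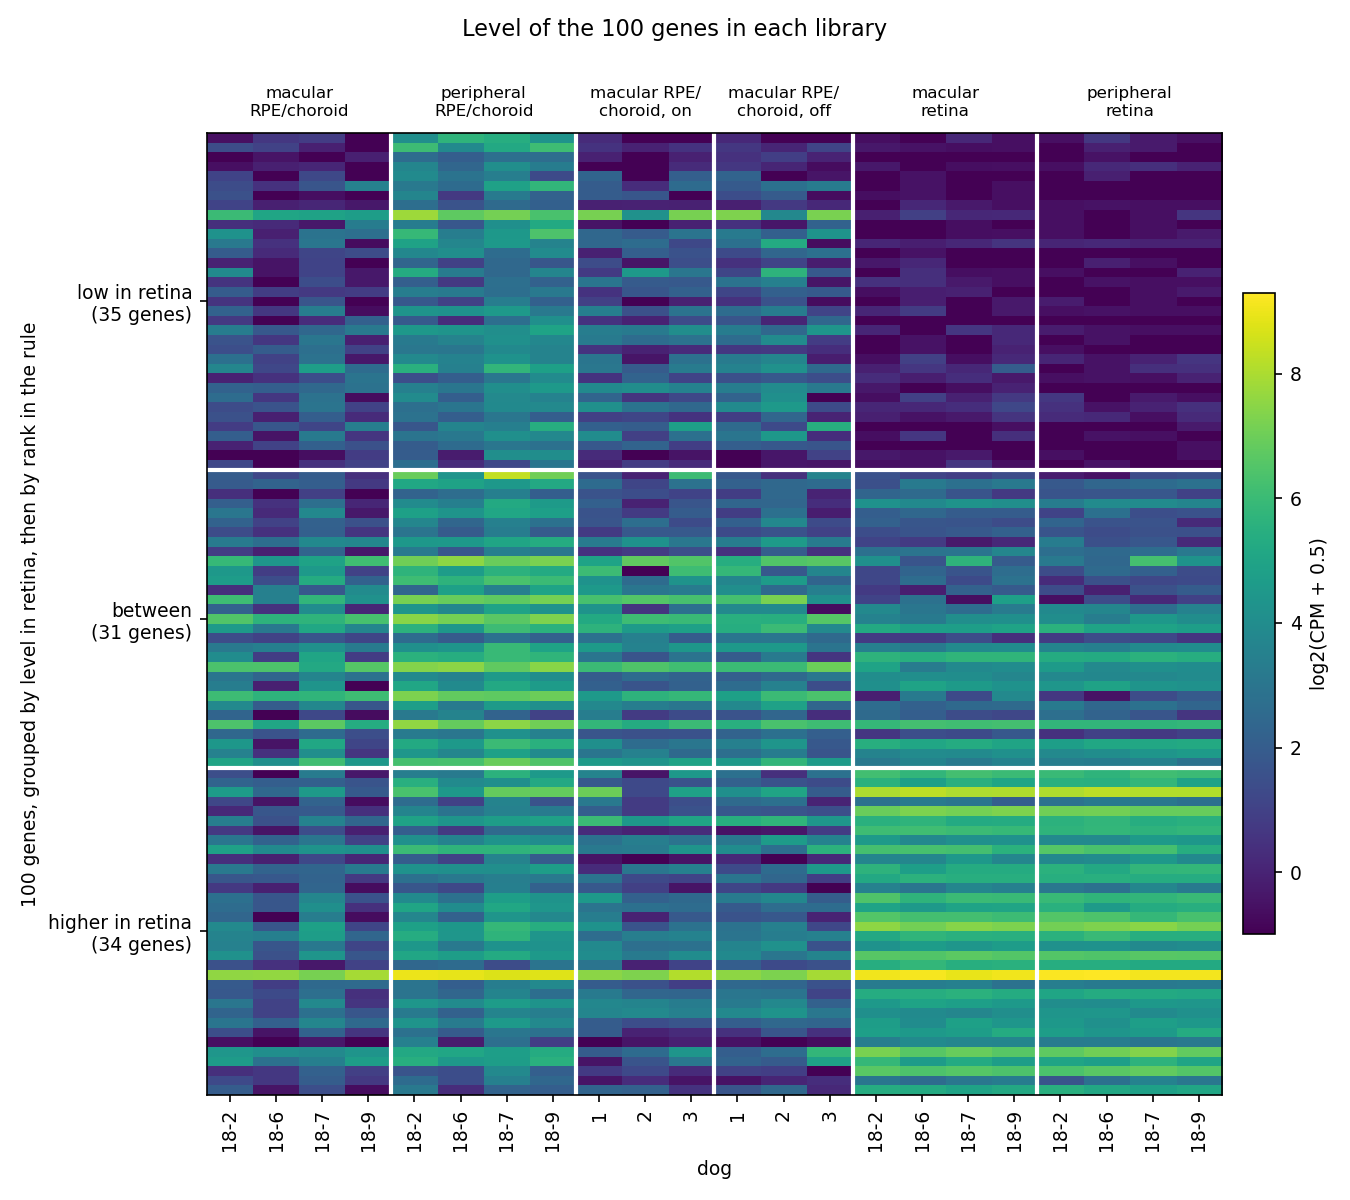
Heat map of log2(CPM + 0.5), with 1 row per gene and 1 column per library, libraries set in groups and labelled by dog. The genes are split by their retinal level into 35 that averaged under 1 CPM there, 34 that averaged at least as much there as in peripheral RPE/choroid, and 31 between. The peripheral RPE/choroid columns are the brightest of the RPE/choroid columns in all 3 blocks.

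The gene with the lowest maximum difference was ENSCAFG00000015051, whose difference was -4.57 or lower in every dog. It had 16.3, 51.7, 42.4 and 19.2 CPM in the peripheral RPE/choroid of dogs 18-2, 18-6, 18-7 and 18-9, and 0.161, 1.09, 1.30 and 0 CPM in their macular RPE/choroid. In the 8 retina libraries it did not exceed 1.07 CPM. In the second set it had 3 counts in each library of dog 1 (0.703 CPM with the retina on and 0.651 CPM with it off) and none in dogs 2 and 3. Peripheral RPE/choroid was thus the only one of the 6 groups in which any library exceeded 1.30 CPM.

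ENSCAFG00000028728 came next, with a maximum difference of -3.14. Its peripheral RPE/choroid values were 122, 19.3, 322 and 133 CPM in the same order of dogs, and its macular values 3.54, 1.75, 3.47 and 0.852 CPM. Retina values lay between 0.214 and 2.50 CPM. The second set differed between dogs here. Dogs 1 and 2 had 2.58 and 0.483 CPM with the retina on and 3.04 and 0.835 CPM with it off, close to the macular values of the first set. Dog 3 had 65.0 CPM with the retina on and 11.7 CPM with it off, so that its retina-on library lay above the peripheral library of dog 18-6.

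**Figure D2:**
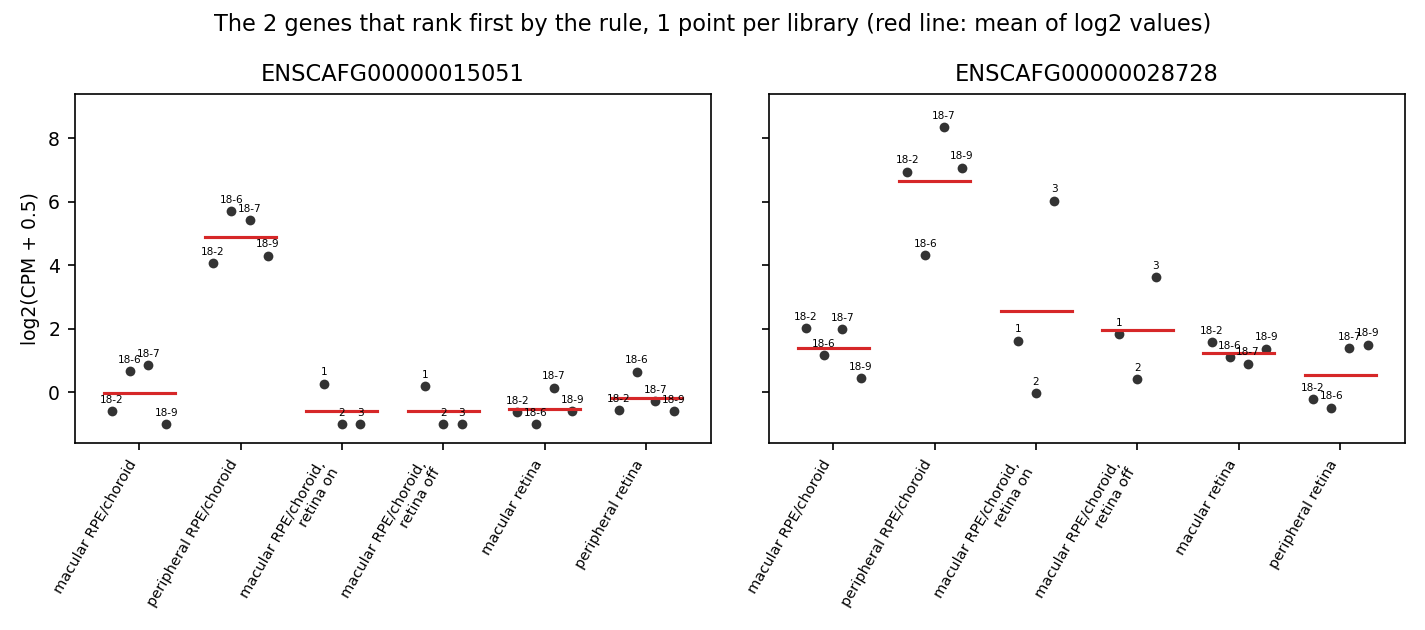
Levels of ENSCAFG00000015051 and ENSCAFG00000028728 as log2(CPM + 0.5), with 1 point per library labelled by dog and a red line at the mean of the log2 values of each group. Peripheral RPE/choroid stands above the other groups for both genes, and for ENSCAFG00000028728 dog 3 of the second set lies above the other macular libraries.

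Across the 100 genes, the median regional difference in RPE/choroid was -1.37 in dog 18-2, -1.82 in dog 18-6, -1.26 in dog 18-7 and -2.49 in dog 18-9, on the log2 scale. The median of all 14069 genes with a mean of at least 2 CPM was 0.01, 0.15, 0.01 and 0.04 in the same dogs. In 53 of the 100 genes every dog had a difference of -1 or lower, and in 7 every dog had -2 or lower. The largest fall was in dog 18-9 for 53 genes, in dog 18-6 for 24, in dog 18-7 for 15 and in dog 18-2 for 8. In 46 genes all 4 macular values lay below all 4 peripheral values, against 3.6% of the 14069 genes, and in the other 54 the regions overlapped between dogs although each dog had its own fall. In the 8-library comparison fitted across 14352 genes with edgeR's quasi-likelihood test and the dog as a block, 98 of the 100 genes passed the low-count filter and 79 were past the threshold of an adjusted p of 0.05, all of them higher in the periphery. Of all tested genes 5.26% were called higher in the periphery and 8.19% higher in the macula. That comparison is the one the choice rests on, so nothing is read from the count. It was 20 without the block, 7 without dog 18-2, 23 without dog 18-9 and 27 without dog 18-6. Over all tested genes, calls higher in the periphery went from 755 to 56, 11, 47 and 92 in the same settings.

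The dogs differed mainly on the macular side. The median level of the 100 genes in macular RPE/choroid was 4.18 CPM in dog 18-2 and 6.28 CPM in dog 18-7, but 1.42 CPM in dog 18-6 and 1.56 CPM in dog 18-9. In peripheral RPE/choroid it was 14.4, 9.48, 17.8 and 16.1 CPM in dogs 18-2, 18-6, 18-7 and 18-9. Both low macular libraries were therefore below the other macular libraries by a larger factor than any 2 peripheral libraries differed. For 64 of the 100 genes the macular values of dogs 18-6 and 18-9 both lay below those of dogs 18-2 and 18-7, while for 5 both lay above. Among the 14069 genes these shares were 20.8% and 19.5%. In the periphery, 40 of the 100 genes had dogs 18-6 and 18-9 both below, against 18.5%. This grouping of dogs was chosen after the values had been seen, and was not tested. It splits the sexes, eyes and age ranges evenly, but dogs 18-2 and 18-7 were both pitbull mixed breeds and dogs 18-6 and 18-9 were not, so that dog and breed cannot be told apart.

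The level of other genes moved with this pattern. A list of the 200 genes highest in RPE/choroid relative to retina, none of them among the 100, was formed from the same libraries. It summed to 26145 and 26465 CPM in the macular RPE/choroid of dogs 18-6 and 18-9, to 23595 and 20998 CPM in dogs 18-2 and 18-7, and to 18066 to 20480 CPM in peripheral RPE/choroid. It was thus highest in the macular libraries in which the 100 genes were lowest. Its part in the result was not tested.

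**Figure D3:**
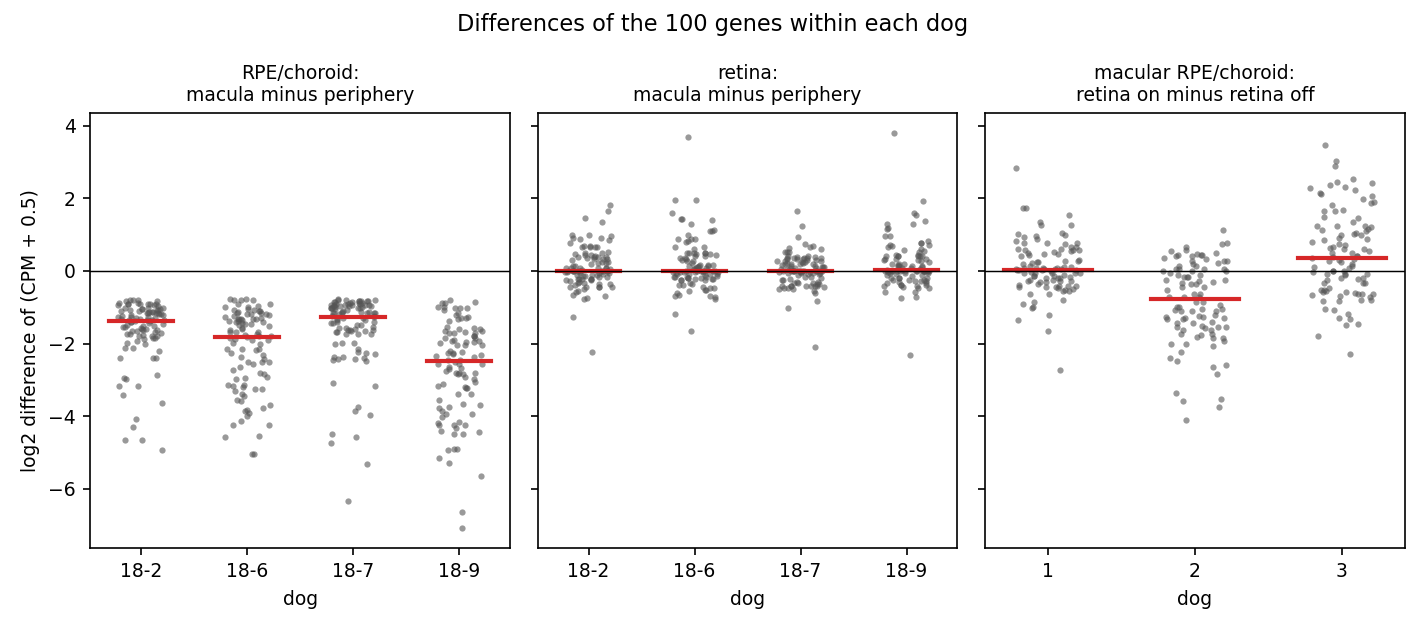
Log2 differences of (CPM + 0.5) within each dog, with 1 point per gene and a red line at the median. The left panel shows the difference that chose the genes, with medians from -2.49 to -1.26. The middle panel shows the retina, with medians from 0.00 to 0.03, and the right panel shows retina on minus retina off in the second set, with medians of 0.04, -0.78 and 0.36 in dogs 1, 2 and 3.

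In the retina, the rule asked only that the 4 dogs should not agree on a difference, so the retinal values are also a description. The median difference of the 100 genes was 0.00 in dogs 18-2, 18-6 and 18-7 and 0.03 in dog 18-9. For 67 genes the sign differed between dogs, for 13 all 4 dogs had the higher value in the macula and for 9 all 4 had the lower value there. The remaining genes had no difference in some or all dogs. In each retina library 25 to 37 of the 100 genes had 3 or fewer counts. For such genes the 0.5 CPM added pulls the difference toward 0, and a single count can set its sign. Of the 61 genes that passed the low-count filter in the retina, edgeR called 7 higher in the macula and 1 higher in the periphery, where 12.3% and 6.63% of the 14392 tested genes were called. Neither share of the 61 genes exceeded that of all genes. Leaving the dog out of the model gave 2 calls among the 61 genes, where 1224 of all 14392 tested genes were called. DESeq2 called 0 of the 99 genes it tested, where 1352 of all 21753 were called. At an unadjusted p under 0.05 (DESeq2) there were 8 of the 99, against 2668 of all genes. With 1 dog left out there were 18 of 64 without dog 18-2, where 3765 of all 14434 tested genes were called against 2719 of 14392 with all dogs, and 2 of 62 without each of dogs 18-6, 18-7 and 18-9, where 1706, 1519 and 1721 of all genes were called.

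ENSCAFG00000003097 had the largest such difference. Its macular retina values were 1.77, 5.77, 1.97 and 6.75 CPM in dogs 18-2, 18-6, 18-7 and 18-9, and its peripheral retina values 0.713, 2.36, 1.79 and 1.99 CPM. Every dog was higher in the macula, with a log2 fold change of 1.19 ± 0.30 (SE, edgeR adjusted p = 0.0290), and the groups overlapped. In RPE/choroid the same gene ran the other way, from macular levels of 25.6, 2.19, 39.3 and 4.26 CPM to peripheral levels of 67.4, 50.2, 80.3 and 63.5 CPM. The gene called higher in peripheral retina, ENSCAFG00000015351, had 30.6, 22.9, 31.0 and 31.4 CPM in macular retina and 45.6, 23.8, 39.6 and 43.7 CPM in peripheral retina. Its log2 fold change was -0.39 ± 0.10 (SE, edgeR adjusted p = 0.0256), and dog 18-6 hardly differed between regions. ENSCAFG00000015351 was thus higher in the periphery of both tissues. Both calls were lost with DESeq2, in a model without dogs and when dog 18-9 was left out, that of ENSCAFG00000003097 also without dog 18-6 and that of ENSCAFG00000015351 also without dog 18-7.

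The 100 genes did not share a level in the retina. By their mean over the 8 retina libraries, a split made after the values had been seen, 35 averaged under 1 CPM, 34 averaged at least as much as in peripheral RPE/choroid, and 31 lay between. The first group had a retinal median of 0.196 CPM, and for 34 of its 35 genes every retina library lay below every peripheral RPE/choroid library. The second group had a retinal median of 41.8 CPM, ranging from 7.07 to 558 CPM, and for 31 of its 34 genes every retina library lay above every macular RPE/choroid library. The split by retinal level and the choice of genes largely fix both of these counts. No share over all genes was formed, so nothing is read from them. The genes raised in peripheral RPE/choroid were therefore a mixture of genes scarcely detected in retina and genes with more RNA there.

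The choice of genes fixes a lower macular level in each of these groups, so only the values are given. In the genes low in retina, the median CPM in macular and peripheral RPE/choroid was 2.09 and 9.58 in dog 18-2, 0.875 and 7.43 in dog 18-6, 2.17 and 14.4 in dog 18-7, and 0.994 and 12.2 in dog 18-9. In the genes higher in retina it was 4.66 and 13.7, 2.41 and 8.36, 7.15 and 17.7, and 1.56 and 14.9 in the same order. The lower macular level of dogs 18-6 and 18-9 appeared for all 3 groups, with 16 of 35 genes low in retina, 23 of 31 genes between and 25 of 34 genes higher in retina having both dogs below the other two.

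Retinal tissue carried into the RPE/choroid samples was described with a list of the 200 genes highest in retina relative to RPE/choroid, again formed from these libraries and without any of the 100. This ranking favours genes low in the same 8 RPE/choroid libraries, so the percentages of the list there are lowered by its choice. Relative to its mean in the 8 retina libraries, the summed level of this list was 1.31%, 0.980%, 0.903% and 0.635% in the macular RPE/choroid of dogs 18-2, 18-6, 18-7 and 18-9. In the peripheral RPE/choroid it was 0.837%, 1.16%, 1.64% and 0.852%. The peripheral value was higher in 3 dogs and lower in dog 18-2. For the 34 genes higher in retina, the peripheral RPE/choroid level was a median of 44.3% of the retinal level (6.03% to 96.0%), and the macular RPE/choroid level a median of 12.8%. The part of carried-over retina in these levels was not tested.

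**Figure D4:**
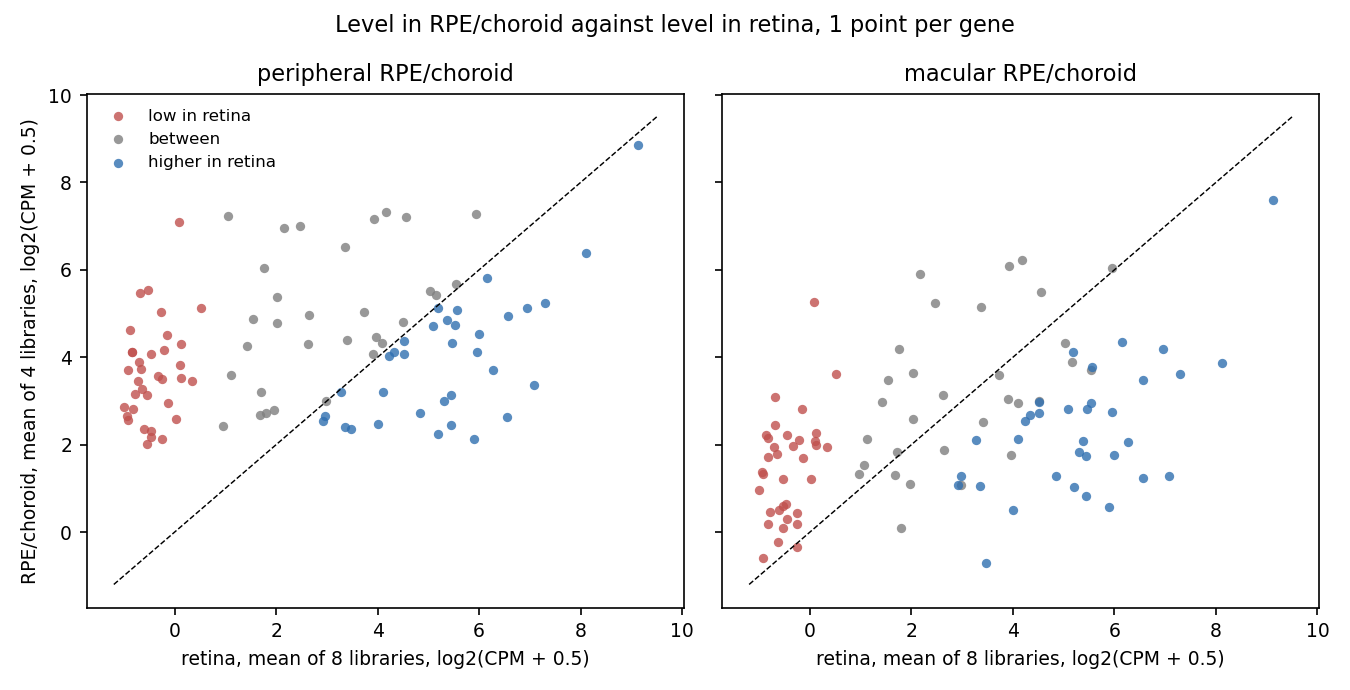
Mean level in RPE/choroid (4 libraries) against mean level in retina (8 libraries), both as log2(CPM + 0.5), with 1 point per gene coloured by retinal level and a dashed line of equality. The 34 genes higher in retina lie on or below the line with peripheral RPE/choroid (left) and further below it with macular RPE/choroid (right).

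The tissues were compared directly within each region. The rule did not use this contrast, but it used the RPE/choroid libraries, and it lowers the macular and raises the peripheral RPE/choroid side. The counts are therefore a description. In the macula, 70 of the 100 genes passed the low-count filter, and edgeR called 38 of them for retina and 11 for RPE/choroid, against 31.4% and 31.6% of the 14997 genes tested. In the periphery, 93 passed, and 22 of them were called for retina and 52 for RPE/choroid, against 32.8% and 33.1% of 14729 genes. More of the genes were thus called for retina in the macula and for RPE/choroid in the periphery, the direction in which the rule pulls them. In the macula the lean of the estimates depended on the low-count filter, whereas the calls leaned toward retina with and without it. Of the 70 genes that passed it, 49 had estimates toward retina, with a median log2 fold change of 1.67. Without the filter 50 of 100 did, with a median of -0.04, and edgeR called 39 for retina and 18 for RPE/choroid. Of all 22702 genes then tested, 4725 and 5129 were called.

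ENSCAFG00000002207 had the largest fold on the retinal side in the macula. It had 10.2, 14.6, 12.6 and 12.4 CPM in macular retina of dogs 18-2, 18-6, 18-7 and 18-9 and 3 counts in all 4 macular RPE/choroid libraries together (log2 fold change 6.39 ± 0.59, SE, edgeR adjusted p = 3.40e-04). Without dog 18-7 the log2 fold change was 7.24. In peripheral RPE/choroid it had 10.6, 0.372, 6.18 and 1.37 CPM, so that dog 18-2 reached the level of the retina and dog 18-6 had a single count. This gene was also called higher in macular than in peripheral retina (log2 fold change 0.50 ± 0.14, SE, edgeR adjusted p = 0.0450). That call was lost with DESeq2, in a model without dogs, and without each of dogs 18-6, 18-7 and 18-9.

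ENSCAFG00000008211 had 121, 154, 141 and 157 CPM in macular retina and 132, 138, 118 and 119 CPM in peripheral retina. In RPE/choroid its macular values were 0.643, 2.84, 3.32 and 0.852 CPM and its peripheral values 11.8, 7.06, 11.1 and 9.14 CPM. Retina exceeded RPE/choroid without overlap in both regions, with log2 fold changes of 6.23 ± 0.40 in the macula and 3.57 ± 0.15 in the periphery (SE, edgeR adjusted p = 9.83e-05 and 1.92e-06). ENSCAFG00000008575 differed most toward retina in the periphery, with 82.0, 100, 111 and 91.3 CPM in retina and 2.65, 2.23, 13.9 and 3.81 CPM in RPE/choroid (log2 fold change 4.04 ± 0.35, SE, edgeR adjusted p = 4.43e-05). Without dog 18-7, whose peripheral RPE/choroid value stood above the other three, its log2 fold change was 4.80.

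On the other side, ENSCAFG00000006674 was scarcely detected in retina. Its macular RPE/choroid held 63.5, 32.6, 29.6 and 25.8 CPM and its peripheral RPE/choroid 221, 106, 142 and 79.7 CPM, whereas no retina library exceeded 1.44 CPM. The macular tissue difference was -5.65 ± 0.41 (log2, SE, edgeR adjusted p = 1.48e-04). The second set departed from the regional pattern for this gene. Dogs 1 and 3 had 144 and 144 CPM with the retina on and 158 and 147 CPM with it off, in the range of the peripheral libraries, while dog 2 had 17.9 and 13.4 CPM, below every macular library of the first set.

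ENSCAFG00000047672 had 4.18, 3.72, 5.05 and 6.96 CPM in macular and 10.6, 7.80, 16.5 and 22.2 CPM in peripheral RPE/choroid. It had 6 counts in the 4 macular retina libraries together (log2 fold change -4.39 ± 0.48, SE, edgeR adjusted p = 6.29e-04) and none in peripheral retina, where it was at least 107-fold lower than in peripheral RPE/choroid. This bound sets the mean CPM of the 4 RPE/choroid libraries against 3 counts over the pooled retina libraries, and it was 118-fold with the RPE/choroid counts pooled too. ENSCAFG00000031939 had 8.35, 5.57, 28.7 and 54.2 CPM in peripheral RPE/choroid and likewise no count in peripheral retina, where it was at least 181-fold lower, or 217-fold with counts pooled on both sides (edgeR adjusted p = 3.15e-04 for ENSCAFG00000047672 and 1.77e-04 for ENSCAFG00000031939). With dog 18-9 left out, the pooled bounds were 70.6-fold for ENSCAFG00000047672 and 96.2-fold for ENSCAFG00000031939, and the floor was then set over 3 retina libraries.

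The second set of dogs gave the macular level of these genes in animals that had not been used to choose them. The peripheral side has no counterpart there, and the sets cannot be told apart from their dogs, so levels are set side by side without a test. The median level of the 100 genes was 5.27, 2.78 and 4.81 CPM with the retina on and 4.45, 5.71 and 2.61 CPM with it off in dogs 1, 2 and 3. All 6 lay within the range of the 4 macular libraries of the first set (1.42 to 6.28 CPM) and below the 4 peripheral libraries (9.48 to 17.8 CPM). For 95 of the 100 genes the mean of the second set was below the peripheral mean, against 45.9% of the 14069 genes, and for 60 it was above the macular mean of the first set, against 51.6%. The mean of the second set was nearer to the macular than to the peripheral mean for 75 genes, against 49.9%. Since the genes were chosen for high peripheral and low macular values in the first set, part of these shares is fixed by the choice.

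Every one of the 6 second-set libraries lay below every peripheral library for 36 of the 100 genes, against 6.11% of the 14069 genes. By retinal level, these were 7 of the 35 genes low in retina, 16 of the 31 between and 13 of the 34 higher in retina. Leaving out single dogs, a check added after the data had been seen, gave 38 to 52 genes, the highest number without dog 18-6. For a fixed set of genes, leaving out libraries can only keep or raise this count. No share over all genes was formed for these settings, so nothing is read from them. The median log2 ratio of the second set to the macular mean of the first set was 0.30 over the 100 genes and 0.02 over all 14069, and its ratio to the peripheral mean was -1.41 and 0.06. Since values of the first set chose the genes, part of the count of 36 genes and of both ratios is fixed by the choice.

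**Figure D5:**
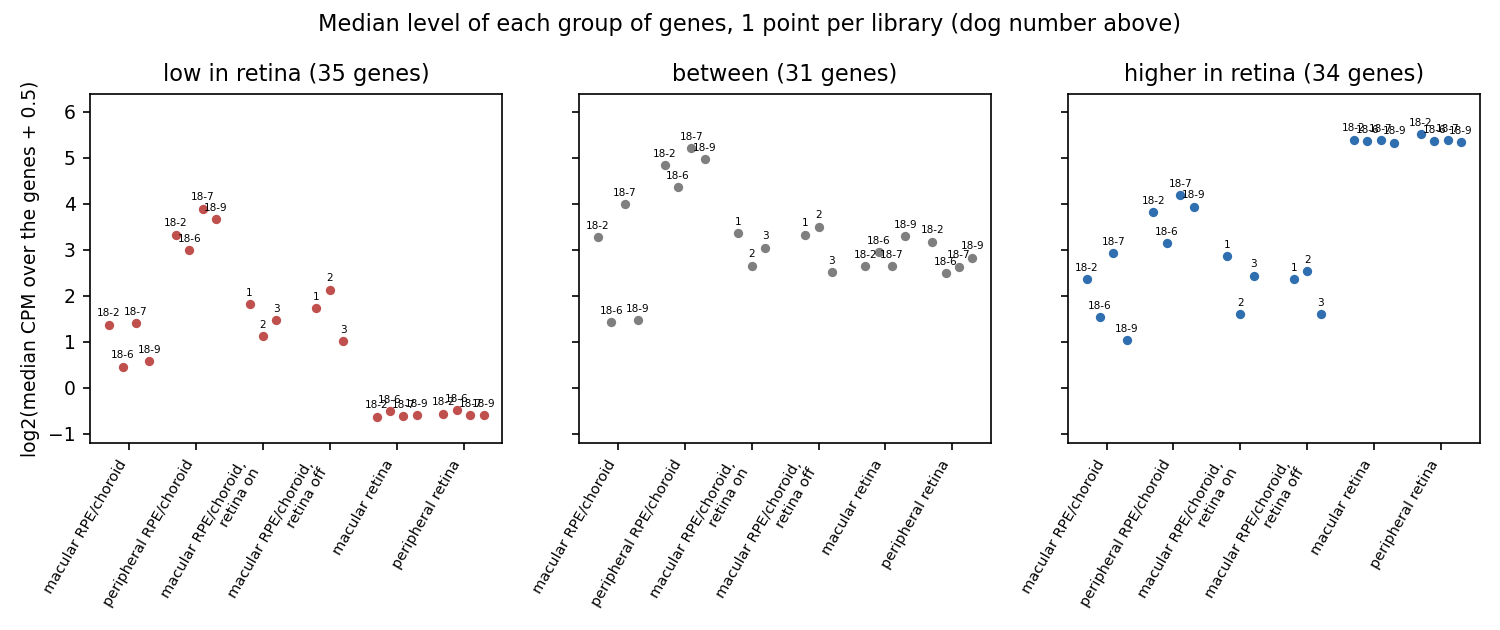
Median CPM over the genes of each retinal level, as log2(median CPM + 0.5), with 1 point per library labelled by dog. In each panel the 4 peripheral RPE/choroid libraries lie above the 10 macular RPE/choroid libraries, and dogs 18-6 and 18-9 are the lowest of the 4 macular libraries of the first set.

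Whether the retina had been left on or peeled off was the comparison that the choice of genes did not touch. None of the 78 genes that passed the low-count filter was called by edgeR in 3 dogs paired by fellow eyes, and none of the 14076 tested genes was (0.0%). At an unadjusted p under 0.05 there was 1 of the 78 (edgeR), against 0.597% of all tested genes. DESeq2 called none of the 100 and had 1 at an unadjusted p under 0.05, against 71 of all 21570 genes. The median log2 fold change of the 78 genes was -0.07, with a range from -1.75 to 1.49, and that of all tested genes was 0.00.

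The dogs moved in different directions. With the retina on, 54 of the 100 genes were higher in dog 1, 26 in dog 2 and 60 in dog 3, and 5 genes were higher and 15 lower in all 3 dogs. No share over all genes was formed for these direction counts, so nothing is read from the genes in which the dogs agreed. The median difference was 0.04 in dog 1, -0.78 in dog 2 and 0.36 in dog 3, against -0.03, 0.07 and -0.08 over the 14069 genes. The summed level of the retina list, relative to its mean in retina, was 17.2% with the retina on and 2.66% with it off in dog 1, 0.406% and 3.03% in dog 2, and 1.23% and 0.522% in dog 3. In dog 2 the library labelled retina off thus held more of the retina list than the library labelled retina on, and 71 of the 100 genes were lower in the latter, 26 higher and 3 equal. Its part in the result was not tested. Without dog 2 the median log2 fold change was 0.36 and edgeR called 1 of 76 genes, where 83 of all 14312 tested genes were called, 80 of them higher with the retina on. Without dog 3 the median was -0.34, with no call among the 100 genes or among all genes (edgeR), and 0 of 80 of the former and 30 of 14169 of the latter at an unadjusted p under 0.05.

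That gene was ENSCAFG00000015921, which was higher in retina (262 to 305 CPM) than in any RPE/choroid library. It had 124, 1.93 and 28.8 CPM with the retina on and 17.1, 32.0 and 3.44 CPM with it off in dogs 1, 2 and 3, the same order within each dog as the retina list. Its log2 fold change was 1.39 ± 1.58 (SE, edgeR adjusted p = 1.000), and 2.97 without dog 2. In the first set it had 79.5, 21.9, 115 and 116 CPM in peripheral and 24.3, 5.03, 23.5 and 3.27 CPM in macular RPE/choroid.

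ENSCAFG00000034328 had the largest estimate in favour of retina on, at 1.49 ± 0.98 (log2, SE, edgeR adjusted p = 1.000). It was almost equal in dog 1 (4.45 and 4.34 CPM), without counts in dog 2, and at 3.89 CPM with the retina on and 0.255 CPM with it off in dog 3, so the estimate rested on dog 3 and was 0.06 without it. In favour of retina off, ENSCAFG00000010102 had 0.234, 2.66 and 8.01 CPM with the retina on and 4.34, 3.34 and 29.2 CPM with it off. ENSCAFG00000013556 had 0.469, 3.87 and 2.52 CPM against 1.95, 4.73 and 6.37 CPM. Both were higher with the retina off in all 3 dogs, by -1.75 ± 0.63 and -1.07 ± 0.46 (log2 fold change of on against off, SE, edgeR adjusted p = 1.000 for each), and neither passed the threshold.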

How the data were processed

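The authors deposited 1 file of raw read counts per library, as whole numbers for 30951 dog Ensembl identifiers. Per the labels' protocols, column-purified total RNA was made into directional Illumina libraries. Per the submitters' processing notes, the tools included HISAT2 2.1.0 and featureCounts 2.0.0, with Trimmomatic 0.39, SAMtools and FastQC 0.11.8, in roles that are not stated. The build, the annotation, the strand setting and the treatment of duplicates were not given in the sources used here, so genes that overlap or have near-identical copies are uncertain.

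The reference table (UU_Cfam_GSD_1.0) matched 0 identifiers. The gene and marker lists planned by symbol could not be used, and no sequence or position is given.

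The 100 genes and all lists were chosen with earlier results of these data known. Comparisons were fitted across all genes with edgeR 4.0.16 in R 4.3.3 (glmQLFit and glmQLFTest, TMM, filterByExpr, Benjamini-Hochberg adjusted p under 0.05), with the dog as a block, since paired libraries came from the same animal per the labels. The code was tested on simulated data. The 200-gene retina and RPE/choroid lists, formed after the data had been seen, took genes with a mean of at least 10 CPM in their tissue. The identifiers named were the first 2 by the rule and, in each other comparison, up to 2 in each direction by size of log2 fold change. They were taken among those past the threshold, or among all tested where none passed. Alternatives were DESeq2 1.42.0, RLE in place of TMM, all genes without the filter, a model without dogs, and each dog left out. No 2 libraries of a group agreed within sampling noise (chi-square per degree of freedom of at least 3.61). The floor of 3 counts covers counting error only. The standard errors were derived from the edgeR fits, as the absolute log2 fold change divided by the square root of the quasi-likelihood F statistic. They include the spread between dogs.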

Additional observations from a re-analysis of the deposited data

Results flagged for a closer look

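Of 76 groups of 4 libraries checked for a value far from the other three, 6 had one. Chance gives about 1 in 20 for measured values, but that rate does not hold where 3 libraries are at 0, since any count then stands apart. This was so for 3 of the 6, all in the retina of dog 18-6: ENSCAFG00000034328 (macular retina at 0.206 CPM, peripheral retina at 0.429 CPM) and ENSCAFG00000013556 (0.206 CPM in macular retina) had 1 or 2 counts where the other dogs had none. Of the other 3, ENSCAFG00000015351 was low in macular retina (22.9 CPM) and ENSCAFG00000015921 high in peripheral retina (305 CPM) of dog 18-6, and ENSCAFG00000008575 was high in peripheral RPE/choroid of dog 18-7, at 13.9 CPM.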

How the results depend on the processing

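Membership was redrawn under other settings. Of the 100 genes, 94 were chosen again with 1 CPM added, 94 with TMM library sizes, 92 without the floor on mean CPM, and 56 to 87 with 1 dog left out, 56 of them without dog 18-7. The number called higher in peripheral RPE/choroid was 20 without the replicate block, 7 to 78 with 1 dog left out, 91 without the low-count filter and 99 with DESeq2. In the retina 2 were called without the replicate block, 0 with DESeq2 and 2 to 18 with 1 dog left out. Between retina on and off 0 to 1 were called. The count called higher in macular RPE/choroid than in macular retina went from 11 of 70 to 18 of 100 without the low-count filter and 21 of 100 with DESeq2. Of all genes, 4745 of 14997, 5129 of 22702 and 4905 of 22702 were called in this direction in the same 3 settings. The other tissue counts and the levels in the second set stayed within 1.5 times or within the spread between dogs. For the named identifiers, 115 alternative values kept direction and side of the threshold, 13 lost the call, all in the regional comparison of the retina, 1 gained it, and 2 turned direction. These 3 were of ENSCAFG00000015921 between retina on and off, whose log2 fold change ran from -0.30 to 2.97 with 1 dog left out, at -0.05 without dog 3. ENSCAFG00000034328 had no value without dog 1, since it fell below the filter. The log2 fold change of ENSCAFG00000015051 in RPE/choroid was -5.77, and -6.36 without dog 18-7. Macular RPE/choroid libraries with 3 or fewer counts for 28 or more of the 100 genes (dogs 18-6 and 18-9) limit the precision of single genes there. The same holds for the retina libraries, each with 25 to 37 such genes.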
